A study of Mus musculus with 4 samples.

Results

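Cajal-Retzius and preplate neuron genes were examined in long-read RNA sequencing of the dorsal and medial palliums of E11.5 mouse embryos. The genes were 10 named markers of these neurons (Reln, Trp73, Calb2, Lhx1, Lhx5, Ebf1, Ebf2, Ebf3, Nhlh1 and Nhlh2), found in the gene count table by their Ensembl identifiers. Of the 16449 genes in the table, 9 were among these markers, and Ebf3 was not analysed here. Only Ebf1 and Ebf2 had enough counts to be among the 5878 genes tested.

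The study deleted Tut1, which encodes the uridylyl transferase that extends the oligo(U) tail of U6 snRNA, in the developing pallium. The comparison had 2 WT libraries and 2 libraries labelled Tut1 knockout, all from E11.5. The labels give the controls only as WT, and according to the study every library carried the floxed Tut1 allele on both chromosomes, so that WT means absence of Cre and knockout means Tut1 f/f with Emx1-Cre. Cre driven from Emx1 acts in the stem cells of the pallium and their progeny, and cells of other origin in the dissected tissue, such as blood cells and meninges, keep the allele. How many embryos went into a library is not stated, and nothing says that replicates came from separate litters, so p-values measure only the spread between these libraries, which may be technical in part.

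Cajal-Retzius cells are among the earliest neurons of the cortex. They arise at the borders of the pallium, at the cortical hem, the septum and the boundary with the subpallium, and migrate under the pial surface into the preplate, the layer that is later split into the marginal zone and the subplate. They secrete reelin, the glycoprotein that guides the layering of later-born neurons. Transcription factors of the p53, LIM-homeodomain and Ebf families mark these cells or their precursors, whereas Nhlh1 and Nhlh2 are expressed more widely in newborn neurons.

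Depth in counts was low, with total counts of 305642 to 397150 per library. The study lists many more sequenced reads for each library, and why the counts are fewer is not stated. A single count was worth 2.66 to 3.47 CPM (counts scaled to a common depth, on TMM library sizes over the tested genes), and the 9 genes together took 0.0102% to 0.0181% of each library. The Tut1 count itself was 6 and 11 in the WT libraries against 29 and 25 in those labelled knockout (log2 fold change 1.71 ± 0.40 SE, adjusted p = 0.0113, edgeR quasi-likelihood test). The gene was thus higher, not lower, under the knockout label, although its adjusted p was 0.440 in DESeq2, and 0.133, 0.200 and 0.160 without WT replicate 1 and without either knockout-labelled library. Only exon 2 was floxed and a count over the whole gene does not resolve it, so the genotype could not be checked here and groups are named by their labels (knockout-labelled). WT replicate 1 had 64 counts of Xist and 0 counts over 4 Y-linked genes, and the other 3 libraries had 0 counts of Xist and 41 to 78 counts over those genes. The WT libraries therefore did not come from the same single embryo, and whether the knockout-labelled pair did is not known.

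Of the 9 genes, 5 (Reln, Trp73, Lhx1, Lhx5 and Ebf1) had both knockout-labelled libraries above the WT pair, and 0 had both below. Among all 15083 genes with at least 1 count, 18.5% lay above in this way, and among the 6192 genes with 1 to 14 counts over the 4 libraries, where Reln, Trp73, Lhx1 and Lhx5 belong, 14.3% did. The shares among the tested genes were 22.1% above and 20.8% below. Neither of the 2 tested genes passed an adjusted p of 0.05 in edgeR or in limma-voom. In DESeq2, Ebf2 did not pass and Ebf1 was given no adjusted p. The share of all tested genes that passed was 2.06% in edgeR (1.4% higher and 0.663% lower in the knockout-labelled libraries), 0.136% in DESeq2 and 2.09% in limma-voom. At an unadjusted p below 0.05, 1 of the 2 tested genes passed in each of these tests, which was Ebf1, against 14.2% of all tested genes in edgeR, 3.71% in DESeq2 and 13.6% in limma-voom. Without the filter all 9 were tested, 0 were called, against 0.935% of the genes in that fit, and 2 (Ebf1 and Reln) passed unadjusted, against 8.47%. With a filter on a total of 15 counts 3 were tested and 0 called, against 1.52%. In bulk tissue, a change in the number of these neurons and a change in RNA per cell cannot be told apart.

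**Figure D1:**
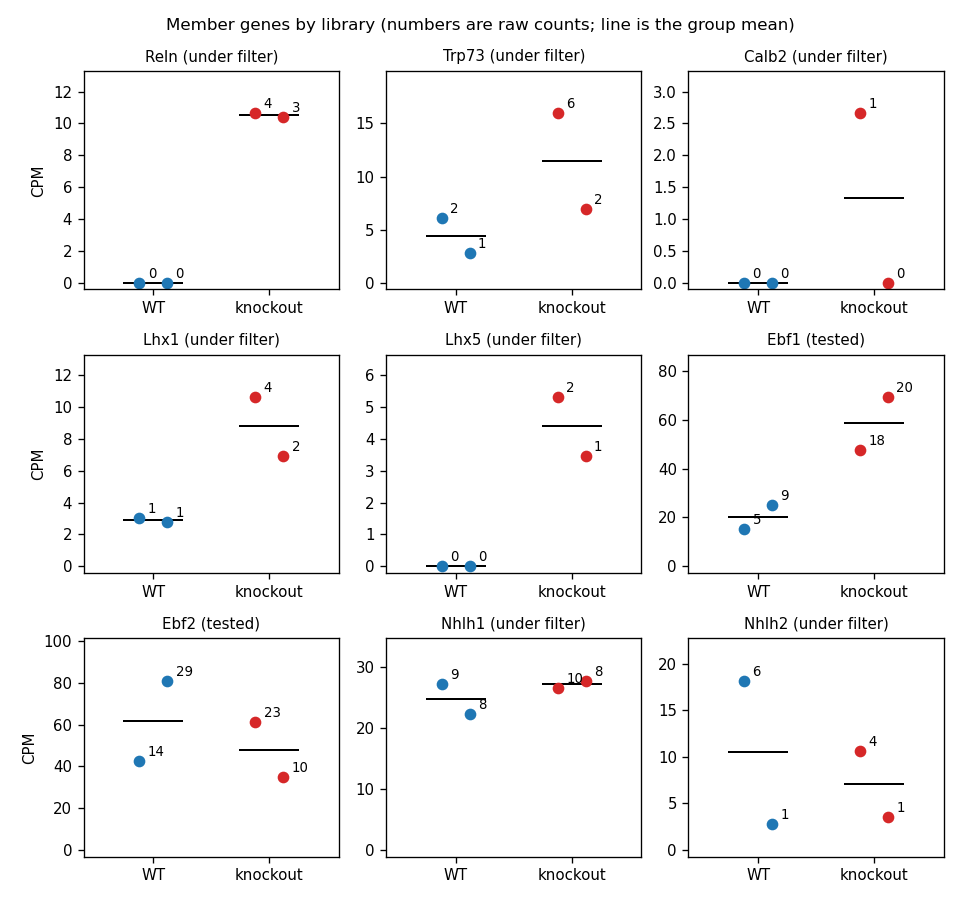
Level of each Cajal-Retzius and preplate gene with a row in each library, in CPM on TMM-scaled library sizes, with 2 WT libraries in blue and 2 knockout-labelled libraries in red. The number beside a point is its raw count and the line is the group mean; Reln, Trp73, Lhx1, Lhx5 and Ebf1 have both red points above both blue points, and the vertical scale differs between panels.

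Reln encodes reelin, the secreted protein by which Cajal-Retzius cells are best known (ENSMUSG00000042453, GRCm38 chromosome 5, 21884454 to 22344702, minus strand). No read was counted in either WT library, against 4 and 3 counts in the knockout-labelled libraries. The groups did not overlap, with means of 0 and 10.5 ± 0.149 CPM (SD, n = 2 each). With 3 counts over both WT libraries together taken as the floor, Reln was at least 2.42-fold higher, a bound that leaves out the error of the knockout-labelled counts. The ratio had a 95% exact lower limit, for counting error only, of 1.49. Reln was under the filter on low counts, and when every gene with a count was tested its adjusted p was 0.306 in edgeR (0.0115 before adjustment). Counts of 0 in both WT libraries and 3 or more in each knockout-labelled library were found for 15 of 15083 genes (0.0994%). The cutoff was chosen after the Reln counts were seen, so Reln meets it by construction. The share takes in genes of every level, and the reverse pattern was not counted.

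The Reln promoter is shown because it is the secreted signal of these cells and because an Ebf-type site can be looked for in it. The RefSeq window on GRCm38.p6, which spans the annotated start, lies at chr5:22344656-22344955 on the minus strand. Capitals mark matches to CCCNNGGG, the palindromic core of the motif bound by Ebf proteins, which reads the same on both strands.
Reln promoter: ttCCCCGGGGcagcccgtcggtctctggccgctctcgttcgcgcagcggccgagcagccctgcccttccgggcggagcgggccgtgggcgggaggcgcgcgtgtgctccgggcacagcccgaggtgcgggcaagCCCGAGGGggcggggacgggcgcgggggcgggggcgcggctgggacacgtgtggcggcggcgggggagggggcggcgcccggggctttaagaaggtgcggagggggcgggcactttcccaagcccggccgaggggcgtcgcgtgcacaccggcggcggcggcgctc
It held 2 matches, beginning at positions −248 and −116 from the annotated start, in a window with 80.7% G and C. Of 32851 RefSeq promoter windows of the same length, 13.7% held at least 1 match. Those windows were not matched to this one for G and C content, and a match is a description of the letters only.

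Trp73, Lhx1, Lhx5 and Calb2, like Reln, had too few counts to be tested. Trp73 encodes p73, a member of the p53 family required for Cajal-Retzius cells (ENSMUSG00000029026, chromosome 4, 154056253 to 154140208, minus strand). It had 2 and 1 counts in WT against 6 and 2 in the knockout-labelled libraries, or 4.43 ± 2.31 and 11.4 ± 6.36 CPM (SD, n = 2 each). The groups did not overlap, yet the lower of the knockout-labelled libraries exceeded the higher WT library by less than the value of 1 count, and the ratio of 2.76 had a 95% exact interval, for counting error only, of 0.663 to 16.2.

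Lhx1 and Lhx5 encode LIM-homeodomain transcription factors made by early cortical neurons. Lhx1 (ENSMUSG00000018698, chromosome 11, 84518284 to 84525535, minus strand) had 1 count in each WT library against 4 and 2 counts in the others, or 2.91 ± 0.167 and 8.79 ± 2.60 CPM (SD, n = 2 each), a ratio of 3.11 with an exact interval of 0.556 to 31.5. Lhx5 (ENSMUSG00000029595, chromosome 5, 120431699 to 120441223, plus strand) was at 0 in both WT libraries against 2 and 1 counts in the others. Neither pair of groups overlapped, and for Lhx5 no fold is given because both groups lay at or under the floor of 3 counts. Calb2, which encodes the calcium-binding protein calretinin (ENSMUSG00000003657, chromosome 8, 110137502 to 110168210, minus strand), had 1 count in replicate 1 labelled knockout and 0 in the other 3 libraries. In the fit without the filter, the adjusted p was 0.847 for Trp73, 0.862 for Lhx1, 0.847 for Lhx5 and 0.862 for Calb2 (edgeR).

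Summed over Reln, Trp73, Calb2, Lhx1 and Lhx5, the counts were 3 and 2 in the WT libraries against 17 and 8 in those labelled knockout. This grouping was made after the values were seen and was given no test.

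Ebf1 showed the larger difference of the 2 tested genes. It encodes a helix-loop-helix transcription factor of early-born neurons that is also made in head mesenchyme, in the striatal lineage and in B cells (ENSMUSG00000057098, chromosome 11, 44617317 to 45008091, plus strand). Its counts were 5 and 9 in WT against 18 and 20 in the knockout-labelled libraries, or 20.1 ± 7.07 and 58.6 ± 15.3 CPM (SD, n = 2 each). The lower of the knockout-labelled libraries held 47.8 CPM and the higher WT library 25.1 CPM, so the groups did not overlap. The log2 fold change was 1.48 ± 0.45 SE, with an adjusted p of 0.0732 over all tested genes in edgeR (0.00218 before adjustment), so the difference did not pass the threshold. By counting error alone the ratio was 2.81, with a 95% exact interval of 1.49 to 5.62. Ebf1 entered the test only through the knockout-labelled libraries, at 45.3 and 65.4 unscaled CPM against a filter at 26.5, while the WT libraries held 13.9 and 22.9. In all, 245 tested genes entered in that way and 24 of them were called.

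Ebf1 has a pair of RefSeq promoter windows, shown because its change was the larger of the 2 tested. They lie on the plus strand of GRCm38.p6 at chr11:44617850-44618149 and chr11:44619978-44620277, and matches to CCCNNGGG would be in capitals.
Ebf1 upstream promoter: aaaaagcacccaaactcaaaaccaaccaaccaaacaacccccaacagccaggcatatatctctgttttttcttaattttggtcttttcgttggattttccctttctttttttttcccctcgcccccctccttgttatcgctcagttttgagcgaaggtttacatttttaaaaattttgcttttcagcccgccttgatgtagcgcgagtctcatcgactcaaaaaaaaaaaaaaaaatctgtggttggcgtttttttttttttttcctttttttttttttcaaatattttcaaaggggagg
Ebf1 downstream promoter: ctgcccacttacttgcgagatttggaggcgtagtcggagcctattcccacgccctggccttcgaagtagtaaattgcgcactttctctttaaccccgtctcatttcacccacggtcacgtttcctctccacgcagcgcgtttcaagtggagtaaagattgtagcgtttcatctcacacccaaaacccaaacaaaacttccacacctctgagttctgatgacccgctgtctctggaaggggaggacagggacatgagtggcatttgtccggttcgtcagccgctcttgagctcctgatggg
They held 0 matches each, and contained 36.7% and 53.0% G and C. Nothing follows from the absence of these letters about Ebf binding elsewhere.

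Ebf2, a close relative of Ebf1 that marks Cajal-Retzius cells and their precursors, had groups that overlapped (ENSMUSG00000022053, chromosome 14, 67233292 to 67430918, plus strand). Its counts were 14 and 29 in WT against 23 and 10 in the knockout-labelled libraries, or 61.7 ± 27.3 and 47.9 ± 18.7 CPM (SD, n = 2 each). The groups overlapped, with the highest value in WT replicate 2 and the lowest in replicate 2 labelled knockout. The log2 fold change was −0.33 ± 0.39 SE (adjusted p = 0.789, edgeR), and without WT replicate 2 it became 0.20. The difference between the Ebf1 and Ebf2 changes was not tested. The longest run of identical bases between annotated Ebf1 and Ebf2 transcripts was 17, and between either of them and Ebf3 it was 23 or 24, and total identity between the genes was not computed.

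**Figure D2:**
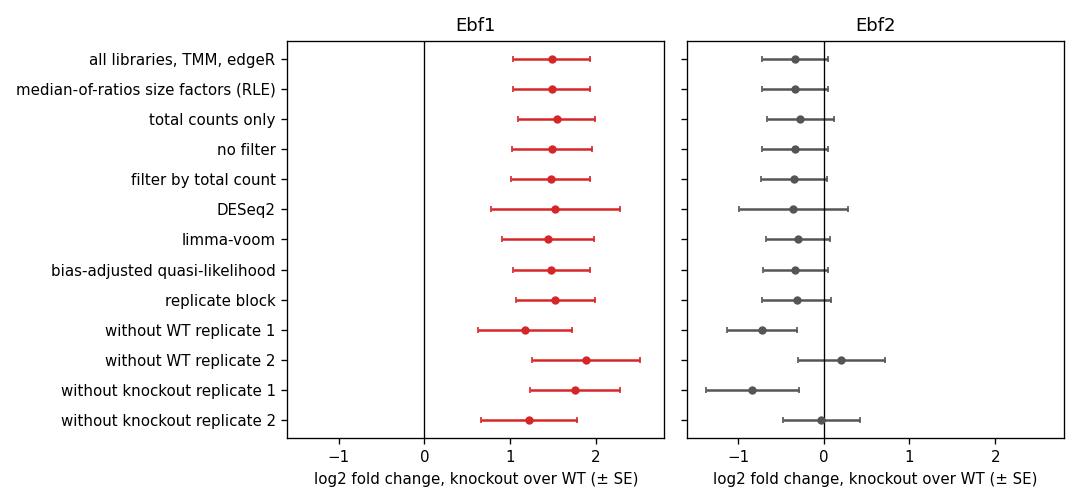
Log2 fold change of Ebf1 (left) and Ebf2 (right), knockout-labelled libraries over WT, under each setting, with bars of 1 SE. Ebf1 lies above 0 under every setting shown, between 1.17 and 1.89, while Ebf2 runs from −0.84 to 0.20 as single libraries are left out.

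Nhlh1 and Nhlh2 encode basic helix-loop-helix factors of newborn neurons, and neither showed a detectable difference at this depth. Nhlh1 (ENSMUSG00000051251, chromosome 1, 172052292 to 172057573, minus strand) had 9 and 8 counts in WT against 10 and 8 in the knockout-labelled libraries. Its means were 24.8 ± 3.48 and 27.2 ± 0.856 CPM (SD, n = 2 each), and the ratio of 1.10 had an exact interval of 0.533 to 2.27, which includes a 2-fold rise. Nhlh1 stood just outside the filter, at 20.4 to 26.2 unscaled CPM. Its groups overlapped on TMM-scaled library sizes, while on total counts the knockout-labelled pair lay above the WT pair. Nhlh2 (ENSMUSG00000048540, chromosome 3, 102010076 to 102015492, plus strand) had 6 and 1 counts in WT against 4 and 1 in the others, so its spread within a group was wider than any difference between groups (ratio 0.740, interval 0.185 to 2.71).

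Across the 9 genes the summed counts were 37 and 49 in WT against 72 and 47 in the knockout-labelled libraries, or 112 and 137 against 191 and 163 CPM. Ebf1 and Ebf2 together held 51.4% to 77.6% of these counts. Without Ebf2 the sums were 69.7 and 55.9 against 130 and 129 CPM, and without both Ebf genes they were 54.5 and 30.7 against 82.4 and 59.0 CPM. The groups did not overlap in any of these 3 sums, and no test was run on them. Among all tested genes, 22.1% lay above WT without overlap. The sums share genes and were made with earlier results of these data known. Leaving out Ebf2 removed the tested gene that was lower in the knockout-labelled libraries.

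Levels of different genes were compared per kilobase of exon, a scaling that decides part of the order in long reads, where a read can span a whole transcript. In WT, Nhlh1 (10.1 CPM per kb) and Ebf2 (8.91) stood highest and overlapped, and Ebf2 lay above Ebf1 (2.06) in both libraries. Neighbours in the order Ebf1, Nhlh2 (1.94), Trp73 (0.800) and Lhx1 (0.715) overlapped, and Reln, Lhx5 and Calb2 were at 0. In the knockout-labelled libraries, Nhlh1 (10.8 and 11.3 CPM per kb in the replicates) lay above Ebf2 (6.92), which overlapped Ebf1 (6.01), and Ebf1 lay above Lhx1 (2.16) without overlap. The genes from Lhx1 downwards overlapped their neighbours, and Reln was lowest by this measure at 0.443 CPM per kb, its exons spanning 23.738 kb in all. Without division by length, Ebf2 (61.1 and 34.7 CPM) lay above Nhlh1 (26.6 and 27.8 CPM) in these libraries, and Reln was above Lhx1, Nhlh2, Lhx5 and Calb2 in its mean.

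Among all tested genes with a mean count of 20 or more, the profile of the 9 summed genes over the 4 libraries was most like those of Trp53i11, Trappc2l, Clpp, Atl1 and Adam22. Their root mean square distances on centred log2 CPM were 0.0130, 0.0284, 0.0348, 0.0497 and 0.0509, and 48 of 3200 genes lay within 0.1. With 4 libraries many profiles come close, so the likeness is a description.

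The genes through which reelin acts included a receptor and an adaptor with ample counts. Of 17 genes of reelin signalling, 10 were tested and 0 were called (2.06% of all tested genes were), with a median log2 fold change of 0.13 against −0.014 over all tested genes and a range of −0.19 to 0.65. Of the 10, 4 had both knockout-labelled libraries above the WT pair and 1 had both below, where 22.1% and 20.8% of all tested genes did. The receptor Lrp8 had 58 and 60 counts in WT against 59 and 53 in the knockout-labelled libraries (−0.018 ± 0.24 SE, adjusted p = 0.984, edgeR). The adaptor Dab1 had 73 and 61 against 68 and 54 counts (−0.086 ± 0.23 SE, adjusted p = 0.918). The other receptor, Vldlr, had 2 counts in WT replicate 2 and 0 elsewhere. The kinase Akt1 (7 and 14 against 18 and 14 counts, log2 fold change 0.65), the adaptor Crkl (6 and 11 against 14 and 11, 0.60) and Cul5, part of the ligase that degrades Dab1 (16 and 19 against 33 and 16, 0.52), lay above WT without overlap in CPM, with adjusted p of 0.541, 0.637 and 0.567 (edgeR).

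Cxcl12, a chemokine of the meninges that holds Cajal-Retzius cells at the surface, had 9 and 7 counts in WT against 22 and 11 in the knockout-labelled libraries. Its log2 fold change of 1.08 ± 0.45 SE did not pass (adjusted p = 0.242, edgeR), although the groups did not overlap. Its receptor Cxcr4 had 1 and 1 against 2 and 1 counts, and 0 of the 2 tested genes of this 3-gene list were called.

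Other genes made by Cajal-Retzius cells or their precursors gave no call. Of 15 listed, 6 were tested, all 6 had a log2 fold change above 0 (median 0.83), 5 had an unadjusted p below 0.05 and 0 were called. Over all tested genes, 48.4% lay above 0 and 7.88% were higher at that unadjusted p. Of the list's genes under the filter, Ndnf (7 and 5 against 4 and 1 counts), Dmrt3 (5 and 7 against 2 and 2) and Lhx1os (2 and 2 against 2 and 1) lay below WT in both knockout-labelled libraries in CPM. Tbr1, a T-box factor of early glutamatergic neurons, had 8 and 17 counts in WT against 29 and 30 in the knockout-labelled libraries (1.29 ± 0.37 SE, adjusted p = 0.0563, edgeR). The nuclear receptor Nr2f2 had 11 and 17 against 31 and 27 counts (1.10 ± 0.36 SE, adjusted p = 0.0973), and Eomes, a T-box factor of intermediate progenitors, had 55 and 45 against 79 and 66 (0.59 ± 0.24 SE, adjusted p = 0.224). The groups did not overlap for these 3 genes. Zic1, a zinc finger factor of the midline, had 33 and 99 against 138 and 72 counts, and its groups overlapped (0.71 ± 0.26 SE, adjusted p = 0.160). The Zic1 value was 1.63 (adjusted p = 0.000161, edgeR) without WT replicate 2 and 0.17 (adjusted p = 0.901) without WT replicate 1. That of Tbr1 was 1.85 (adjusted p = 0.0195) without WT replicate 2 and 0.90 (adjusted p = 0.365) without WT replicate 1, and leaving out knockout-labelled replicate 1 or 2 gave an adjusted p of 0.262 or 0.371. Of 13 preplate and subplate genes, which share Tbr1 with this list, 6 were tested and 0 were called, with a median of 0.26. Fezf2, a zinc finger factor of deep-layer neurons and their progenitors, had 35 and 40 against 25 and 25 counts and lay below WT without overlap (−0.53 ± 0.29 SE, adjusted p = 0.446, edgeR). Bcl11b, another factor of deep-layer neurons, had 16 and 10 against 18 and 18 counts (0.52 ± 0.40 SE, adjusted p = 0.623).

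Sources of the cells gave few counts, and their genes differed in direction. Of 14 genes of the cortical hem and other sources, 2 were tested and 0 were called, and the hem gene Wnt8b had 7 and 47 counts in WT against 15 and 7 in the knockout-labelled libraries (−1.23 ± 0.48 SE, adjusted p = 0.199, edgeR). WT replicate 2 held most of the Wnt8b counts, and without that library the log2 fold change was 0.62, while without WT replicate 1 it was −1.99 (adjusted p = 0.000186). The other tested gene, Rspo3, a Wnt agonist, had 11 and 19 against 21 and 16 counts and lay above WT without overlap in CPM (0.35 ± 0.38 SE, adjusted p = 0.764, edgeR). Gdf10, which was not tested, had 1 and 3 against 9 and 5 counts. Its ratio was 3.63, with a 95% exact interval, for counting error only, of 1.14 to 15.1. Rspo2, also not tested, went the other way and lay below WT without overlap in CPM (5 and 6 against 4 and 4 counts).

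Among the listed regulators of pallial progenitors, 1 was called. Lhx2, a LIM-homeodomain factor of cortical progenitors that represses hem fate, fell from 348 and 272 counts to 106 and 106 (−1.49 ± 0.18 SE, adjusted p = 6.48e-07, edgeR). Without replicate 1 labelled knockout its adjusted p was 0.0539. Emx2 had 48 and 62 counts against 23 and 31 (−0.96 ± 0.28 SE, adjusted p = 0.0639) and Pax6 had 137 and 119 against 132 and 93 (−0.14 ± 0.19 SE, adjusted p = 0.816), so 1 of the 3 tested genes on this list was called. Of the markers of the labelled tissue, Pax6, Emx2 and Lhx2 were thus well counted, while Emx1 had few counts (6 and 7 against 1 and 2).

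Partners of the LIM and Ebf factors had 10 of 14 genes tested, with 1 called lower and a median of −0.18. The called gene was Tcf4, an E protein that pairs with basic helix-loop-helix factors, which fell from 285 and 235 to 139 and 158 counts (−0.74 ± 0.18 SE, adjusted p = 0.0124, edgeR). Its adjusted p was 0.260 in DESeq2, 0.291 without WT replicate 1 and 0.480 without replicate 1 labelled knockout. Lmo2, a LIM-only protein, had 26 and 54 against 24 and 11 counts (−1.14 ± 0.34 SE, adjusted p = 0.0658, and 0.0031 without WT replicate 1).

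Of the general neuron genes, 5 were called higher in the knockout-labelled libraries and 0 lower, against 1.4% and 0.663% of all tested genes. Of 20 listed, 14 were tested, 14 had a log2 fold change above 0 with a median of 1.06 (48.4% of all tested genes lay above 0), and 5 passed (Mapt, Myt1l, Nsg2, Dcx and Ncam1). Of these 5, Mapt alone kept an adjusted p under 0.05 whichever library was left out. Dcx, a microtubule protein of migrating neurons, rose from 36 and 36 to 86 and 70 counts (1.17 ± 0.24 SE, adjusted p = 0.00461, edgeR), with adjusted p of 0.160 and 0.0899 without knockout-labelled replicates 1 and 2 in turn and of 0.179 in DESeq2. Tubb3, a neuronal tubulin, had 36 and 33 against 55 and 23 counts (0.21 ± 0.29 SE, adjusted p = 0.836), and the untested neurofilament gene Nefm had 9 and 2 against 2 and 2. The summed level of the 20 genes was 2254 and 2363 CPM in WT and 3877 and 3869 CPM in the others. Of the 10 radial glia and progenitor genes, 8 were tested and 2 (Mki67 and Cenpf) were called lower, with a median of −0.39. Their adjusted p was 0.333 and 0.379 without knockout-labelled replicate 1, 0.202 and 0.084 without replicate 2, and 0.388 and 0.237 without WT replicate 1, and that of Cenpf was 0.0741 without WT replicate 2 (edgeR).

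**Figure D3:**
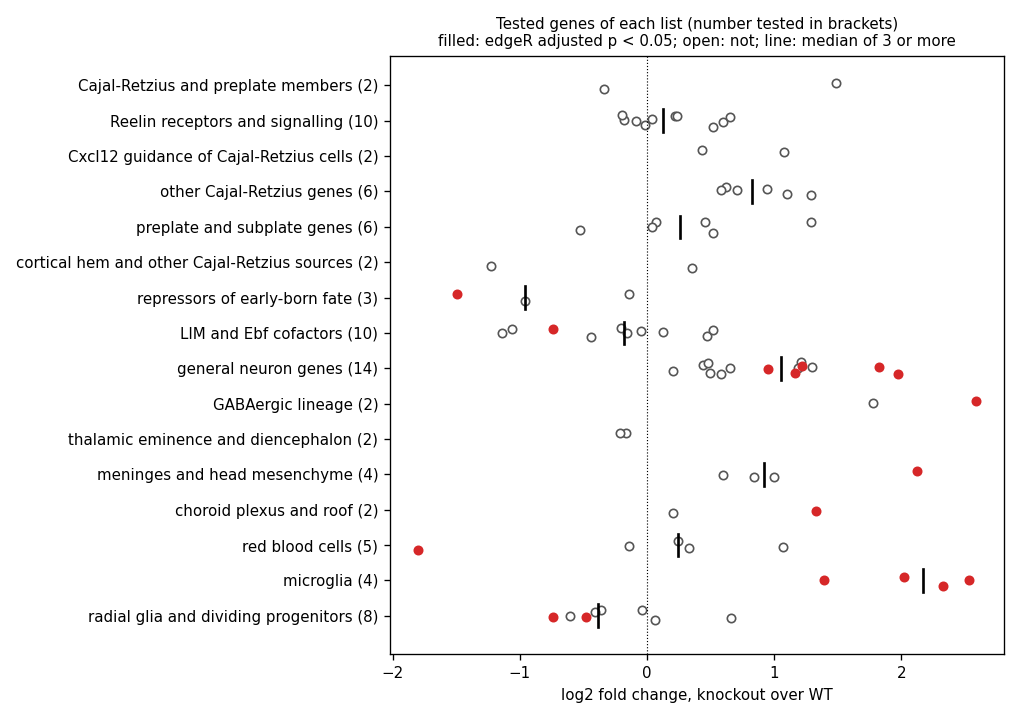
Log2 fold change, knockout-labelled libraries over WT, of each tested gene of the lists, with 1 point per gene, filled red where the edgeR adjusted p is under 0.05, and a line at the median where 3 or more genes were tested. The 6 other Cajal-Retzius genes and the 14 general neuron genes all lie above 0, and the 10 reelin signalling genes run from −0.19 to 0.65.

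Markers of other cells that make Ebf1 also had higher summed levels under the knockout label. For meninges and head mesenchyme, where Ebf1 is also made, 4 of 11 genes were tested, 1 was called higher (Col1a2, with 3 and 7 against 27 and 16 counts) and the median was 0.92. The summed level of that list was 112 and 279 CPM in WT and 489 and 323 CPM in the knockout-labelled libraries, with Foxc2 at 0 in both WT libraries and none at 0 in both of the others. Prrx1, of the same list, had 3 and 4 against 3 and 0 counts. For the GABAergic lineage, 2 of 11 were tested and 1 was called higher (Dlx1, 0 and 8 against 34 and 14 counts), the sum was 15.1 and 89.4 against 202 and 111 CPM, Dlx2 and Dlx5 were at 0 in both WT libraries, Gsx2 was at 0 in both knockout-labelled libraries and Slc32a1 was at 0 in all 4. WT replicate 1, which had the fewer Ebf1 counts of the WT pair, was also the lowest library in both sums. The knockout-labelled pair went the other way. Ebf1 was at 47.8 CPM in its replicate 1 and 69.5 CPM in replicate 2, while both sums were lower in replicate 2. The adjusted p of Col1a2 (0.00742 in edgeR) was 0.127 and that of Dlx1 (0.00494) was 0.0947 without WT replicate 1, 0.347 and 0.507 without knockout replicate 1, and 0.084 and 0.0735 without knockout replicate 2. The part of these cells in the Ebf1 and Reln values was not tested.

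Further lists gave 4 of 4 tested microglia genes higher of 8 listed (Csf1r, Cx3cr1, Aif1 and Tyrobp, median 2.17, sum 96.9 and 106 against 409 and 337 CPM, with C1qa and Fcer1g at 0 in both WT libraries and C1qb at 0 in both of the others). The choroid plexus list had 2 of 6 tested and 1 called higher, Ttr, with 31 and 26 against 114 and 29 counts. Of 8 red blood cell genes, 5 were tested and Hbb-bh1 alone was called, lower. None of these 6 calls passed without knockout replicate 1 (edgeR). Of 10 thalamic eminence and diencephalic genes, a neighbouring source of such neurons, 2 were tested and 0 were called, with sums of 118 and 140 against 162 and 86.8 CPM. Their part in the values of the Cajal-Retzius genes was not tested.

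**Figure D4:**
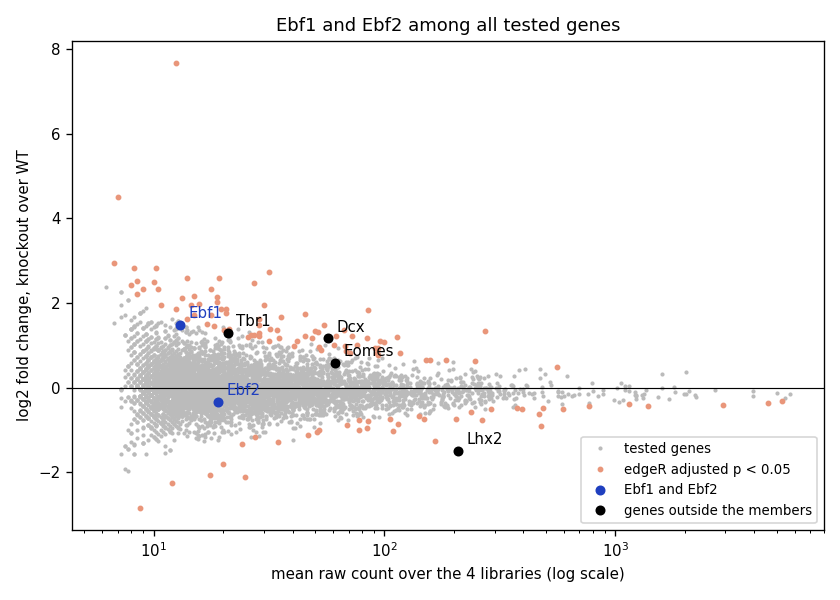
Log2 fold change, knockout-labelled libraries over WT, against the mean raw count over the 4 libraries (log scale) for the 5878 tested genes, with called genes in orange, Ebf1 and Ebf2 in blue and 4 genes outside the group in black. Ebf1, at 1.48, lies at the upper edge of the uncalled genes of its count, and Ebf2, at −0.33, lies within them.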

How the data were processed

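The authors deposited raw counts per gene, with no normalization, from Nanopore long reads of E11.5 palliums. Per the labels and the study's methods, reads were aligned with minimap2 2.24 to Ensembl 102 transcripts (GRCm38) and processed with FLAIR 2.0.0. Strand, reads mapping to several genes and the summing of isoforms are not given in the sources used here, so antisense reads cannot be told apart. Symbols and positions came from GENCODE M21 on GRCm38, which matched 16429 of 16449 identifiers, and promoters came from RefSeq (7 of the 10 genes matched).

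Counts of 2 WT and 2 knockout libraries were compared with edgeR 4.0.16 in R 4.3.3, by filterByExpr (a minimum count of 10 and a total of 15), TMM, glmQLFit and glmQLFTest, two-sided, with Benjamini-Hochberg adjustment over all 5878 tested genes and a threshold of 0.05. The biological coefficient of variation was 10.5%, with 2 residual and 37.5 prior degrees of freedom. Intervals and the floor of 3 counts cover counting error only. An exact permutation of 2 against 2 libraries cannot go below p = 0.333, so none was used. In simulated counts for the 5878 genes of this comparison, edgeR found 40.3% of 2-fold and 85.8% of 4-fold changes.

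The alternatives tried were DESeq2 1.42.0, size factors by median of ratios, total counts, no filter, limma-voom (limma 3.58.1), the bias-adjusted quasi-likelihood, the replicate number as a block and leaving out each library, where the lone library was assumed to vary like the others. A filter on a total of 15 counts was added after the data were seen. The genes, the lists and the tests were chosen with earlier results of these data known. All 10 Cajal-Retzius and preplate genes were named. From each other list at most 6 tested genes were named, called genes first and then by smallest p, beside Tut1, Tbr1, Eomes, Lhx2, Vldlr, Lrp8, Dab1, Cxcl12, Cxcr4, Dcx and Tubb3. A further gene of the rule is not reported here. Xist, Emx1, markers at 0 and the untested genes outside the Cajal-Retzius and preplate group were named after their values were seen. The most alike genes were the 5 nearest in centred log2 CPM with a mean count of 20 or more.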

Additional observations from a re-analysis of the deposited data

How the results depend on the processing

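None of the Cajal-Retzius and preplate genes was called under any alternative run, with 2 tested in most fits, 3 under the filter on a total of 15 counts (chosen after seeing the data) and 9 without a filter, where 2 (Ebf1 and Reln) had an unadjusted p below 0.05. The adjusted p of Ebf1 ran from 0.0629 on total counts to 0.434 without replicate 2 labelled knockout (edgeR), was 0.181 in limma-voom, and was not given by DESeq2, whose unadjusted p was 0.0416. Leaving out single libraries moved the log2 fold change of Ebf1 between 1.17 and 1.89 and that of Ebf2 between −0.84 and 0.20, the last without WT replicate 2. The number of genes called was 121, and became 8 in DESeq2, 76 with the replicate block, and 3 to 108 when single libraries were left out (75 without WT replicate 1, 3 without replicate 1 labelled knockout and 35 without replicate 2). The replicate numbers are shared in name only (correlation of same-numbered deviations −0.0614). Under the block Ebf1 was at 1.53 (adjusted p = 0.103) and Ebf2 at −0.31 (adjusted p = 0.833), and no call on the Cajal-Retzius genes changed. The share of calls that were higher was 67.8%, and 81.4% on total counts, where the median of all genes moved from −0.014 to 0.048. On total counts 6 of the 9 genes did not overlap, not 5, the added gene being Nhlh1. The share of all genes on that scaling is not given here, so this count has no background beside it. Tbr1 was called on total counts (adjusted p = 0.0484, edgeR) and with the bias-adjusted form (0.0485). Over the 41 other tested genes that the naming rule selects, which include Gsk3b, Ackr3, Lpar1, Tcf3 and Ssbp4 whose values are not printed, 409 values kept their direction and side of the threshold, 58 lost the call, 8 gained one and 7 reversed. The reversals were Lrp8 at 0.044 on total counts (−0.13 to 0.10 without single libraries), Dab1 (−0.28 to 0.10), Tubb3 (−0.33 to 0.54), Wnt8b (−1.99 to 0.62) and Pax6 (−0.31 to 0.015). The cause was not tested. At this depth, the differences in Trp73, Calb2, Lhx1, Lhx5, Nhlh1 and Nhlh2 lay within counting error.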
